A study of Mus musculus with 8 samples.

Results

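Clustered histone genes were examined in the germinal zones and the cortical plate of the embryonic mouse neocortex. They were defined as every gene of the Hist1, Hist2, Hist3 and Hist4 groups, under those names or the newer H1f, H2ac, H2bc, H3c and H4c names, whose RefSeq accession was carried by a gene probe. This rule found 52 probes of 48 genes among 39429 gene probes (20283 named genes), while 23 of the 71 clustered histone genes in the RefSeq table had no probe. The study profiled RNA from hand-dissected tissue of ICR mice at embryonic day 16. Dividing progenitors fill the ventricular and subventricular zones, called V/SVZ here (4 samples), and the cortical plate (CP), the layer of young neurons that have left the cell cycle, gave the other 4. The labels give no genotype other than the strain and no treatment, and both tissues share the age and the strain. Each sample had its own 1-colour Agilent array. Whether the 4 samples of each tissue are separate animals is not stated, and the p-values here speak only of the scatter among samples, which could be technical. The V/SVZ arrays were all on slide 1 and the CP arrays all on slide 2, so slide and tissue cannot be told apart.

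Clustered histone genes supply most of the histone protein that a cell needs when it copies its DNA. Core histones H2A, H2B, H3 and H4 form the nucleosome, and linker histone H1 binds where DNA enters and leaves it. Their genes lack introns, are transcribed mainly in S phase, and give mRNAs that end in a stem-loop bound by SLBP in place of a poly(A) tail. The labelling kit named in the labels is built around an oligo(dT) primer, and some of these genes are also known to give polyadenylated transcripts. Which form of a transcript a probe read was not tested. Several of these genes differ by only a few bases in their coding sequence, and the files hold no probe sequences, so the copy named for a probe is uncertain wherever near-identical copies exist.

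All values below are log2 signals after the 75th percentile of each array was subtracted, so 0 is that percentile, and a difference of 1 is a 2-fold change. The share of gene probes well above background ran from 58.5% to 62.9% over the 8 arrays, while the percentile itself lay between 2113 and 2566 intensity units. Markers fitted the labelled tissues: 5 of 5 radial glia genes and 2 of 2 intermediate progenitor genes were called higher in V/SVZ, and 5 of 5 genes of cortical plate neurons were called higher in CP. Markers of some other cells also differed between the dissections. Of 5 microglia markers, 4 were called higher in V/SVZ, and the log2 of their summed level ran from 2.90 to 3.39 in V/SVZ and from 1.27 to 1.77 in CP. Of 5 tested red cell genes, 4 were called higher in V/SVZ, with 7.19 to 7.55 in V/SVZ and 6.77 to 6.94 in CP for the same sum. Of 5 endothelial genes, 2 were called higher in V/SVZ (Cldn5 at 1.21-fold, Kdr at 1.25-fold), none higher in CP and 3 not called. This count is near the 35.3% of all tested probes called higher in V/SVZ. For the sum, endothelial values were 2.77 to 2.91 in V/SVZ and 2.51 to 2.67 in CP. Meningeal genes (1 of 4 higher in V/SVZ, 1 higher in CP) and interneuron genes (2 of 4 higher in V/SVZ, 2 higher in CP) were called in both directions. The part of these cells in the histone values was not tested.

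Promoter windows from RefSeq (GRCm38.p6, 250 bases before to 50 after the start of each gene) were available for 62 of the 71 genes, 43 of them with a probe. The windows of 3 pairs of genes are shown because each pair sets a member with more signal in V/SVZ beside a member of the same class without, H4c4 being one whose values were also unsteady and not called. The H1 pair is H1f5 (chr13:21780576-21780875, minus strand) and H1f2 (chr13:23738557-23738856, plus strand). The H3 pair is H3c8 (chr13:23535168-23535467, plus strand) and H3c3 (chr13:23745472-23745771, minus strand). The H4 pair is H4c4 (chr13:23581318-23581617, plus strand) and H4c8 (chr13:23530794-23531093, plus strand). Capitals mark matches on either strand to any of 7 short motifs, which are spelled out in the next paragraph.
H1f5: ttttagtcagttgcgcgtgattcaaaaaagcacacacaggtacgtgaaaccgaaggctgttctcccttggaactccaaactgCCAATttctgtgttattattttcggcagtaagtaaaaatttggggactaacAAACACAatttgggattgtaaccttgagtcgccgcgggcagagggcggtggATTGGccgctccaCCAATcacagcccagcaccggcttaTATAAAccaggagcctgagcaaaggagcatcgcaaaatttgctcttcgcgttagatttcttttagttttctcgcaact
H1f2: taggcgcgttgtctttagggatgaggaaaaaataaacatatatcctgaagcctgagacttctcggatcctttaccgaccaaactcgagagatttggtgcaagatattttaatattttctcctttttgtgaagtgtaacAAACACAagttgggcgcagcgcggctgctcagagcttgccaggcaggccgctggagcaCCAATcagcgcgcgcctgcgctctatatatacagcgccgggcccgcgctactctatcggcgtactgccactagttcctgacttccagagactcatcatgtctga
H3c8: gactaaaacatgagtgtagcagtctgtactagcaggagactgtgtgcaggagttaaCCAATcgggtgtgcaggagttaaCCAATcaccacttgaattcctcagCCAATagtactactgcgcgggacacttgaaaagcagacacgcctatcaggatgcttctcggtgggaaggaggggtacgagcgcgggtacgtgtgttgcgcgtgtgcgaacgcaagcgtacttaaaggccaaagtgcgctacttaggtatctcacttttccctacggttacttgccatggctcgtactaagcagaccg
H3c3: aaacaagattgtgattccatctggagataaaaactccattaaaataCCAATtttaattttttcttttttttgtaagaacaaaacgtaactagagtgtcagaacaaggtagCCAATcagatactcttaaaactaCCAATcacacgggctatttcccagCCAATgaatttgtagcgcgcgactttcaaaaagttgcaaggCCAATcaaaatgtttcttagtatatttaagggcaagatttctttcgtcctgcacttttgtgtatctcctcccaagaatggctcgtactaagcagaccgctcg
H4c4: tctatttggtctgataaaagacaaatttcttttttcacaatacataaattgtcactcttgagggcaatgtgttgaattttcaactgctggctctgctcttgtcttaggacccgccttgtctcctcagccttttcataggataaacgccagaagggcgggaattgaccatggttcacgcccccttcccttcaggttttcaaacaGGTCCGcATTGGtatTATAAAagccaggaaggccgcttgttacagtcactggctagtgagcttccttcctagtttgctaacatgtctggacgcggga
H4c8: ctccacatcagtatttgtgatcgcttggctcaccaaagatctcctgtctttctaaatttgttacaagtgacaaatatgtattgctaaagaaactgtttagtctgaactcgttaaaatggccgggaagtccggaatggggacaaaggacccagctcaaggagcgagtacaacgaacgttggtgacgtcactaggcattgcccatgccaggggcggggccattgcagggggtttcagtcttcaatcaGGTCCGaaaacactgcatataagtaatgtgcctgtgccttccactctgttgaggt
The H1f5 and H1f2 windows both hold CCAAT and AAACACA, the element known from H1 promoters, and TATAAA was found in H1f5 alone of the pair. Both H3 windows hold CCAAT and none of the other motifs. Both H4 windows hold GGTCCG, known as the core of the HINFP site of H4 promoters, while CCAAT and TATAAA were found in H4c4 alone of the pair.

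The 7 motifs were counted on both strands in all 32851 windows of the table, with bases shared by neighbouring motifs counted for each. CCAAT was in 37.4% of all windows, in 6 of 6 H1, 18 of 18 H2A, 17 of 17 H2B and 10 of 10 H3 windows, and in 3 of 12 H4 windows. GGTCCG was in 8.25% of all windows and in 11 of 12 H4 windows, against 1 of 10 H3 windows, 1 of 17 H2B windows and none of the H1 and H2A windows. AAACACA was in 7.18% of all windows and in 5 of 6 H1 windows, with 2 of 18 for H2A and 2 of 17 for H2B. The octamer ATTTGCAT, the letters bound by Pou2f1 (Oct-1), was in 1.74% of all windows, in 7 of 18 H2A and 7 of 17 H2B windows, and in none of the other classes. TATAAA was in 13.6% of all windows and in 4 of 6 H1, 11 of 18 H2A, 8 of 17 H2B, 4 of 10 H3 and 8 of 12 H4 windows. TTTCCCGC, the letters of an E2F site (1.07% of all windows), and TTTTCAATC, part of a longer stretch known from H4 promoters (0.216%), were each in 1 of 12 H4 windows and in no other histone window. A match says only that the letters are in the window.

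Most clustered histone probes had more signal in V/SVZ. Of the 52 probes, 49 passed the filter on dim probes, and 35 of these were called higher in V/SVZ at an adjusted p under 0.05 (limma, Benjamini-Hochberg adjustment over all 23858 tested probes), where 35.3% of all tested probes were so called. Another 8 were called higher in CP, against 44.4% of all tested probes, and 6 were not called, against 20.3%. The median difference of the 49 probes was 2.41 (V/SVZ minus CP), and that of all tested probes was -0.09. Probes named for near-identical genes were counted singly, so the member counts and this median may repeat the same signals. Called differences of at least 2-fold toward V/SVZ were found for 33 members, against 13.8% of all tested probes, and of at least 8-fold for 11 members, against 3.59%. In the other direction 1 member reached 2-fold, against 16.4%. Called in either direction were 43 members, against 79.7% of all tested probes. The arrays of the tissues did not overlap for 41 of the 49 probes, 35 of them with V/SVZ higher, against 75.5% of all tested probes without overlap in either direction. In bulk tissue, fewer cells of a type and less RNA per cell cannot be told apart.

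**Figure D1:**
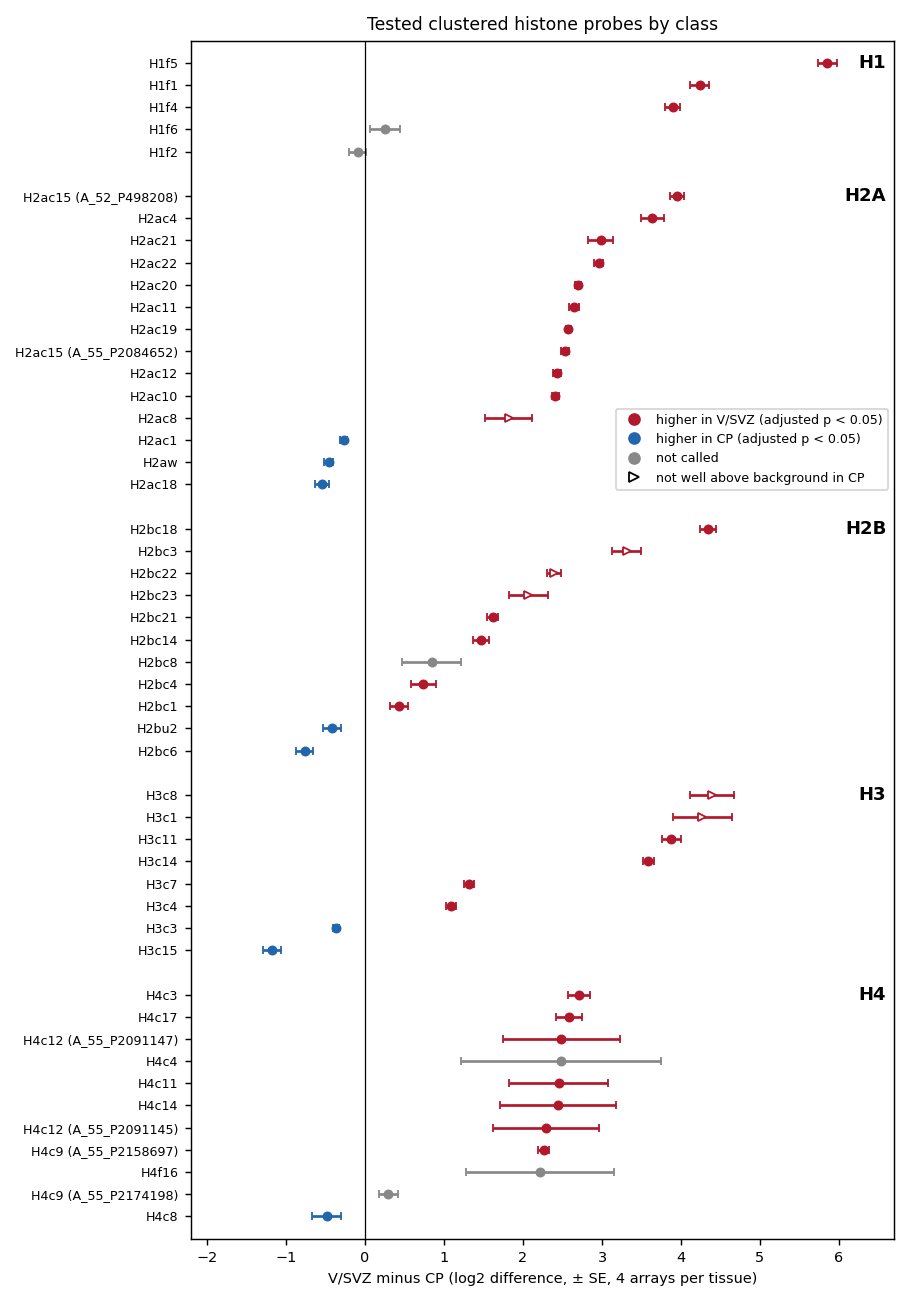
Difference between V/SVZ and CP (log2, ± SE, 4 arrays per tissue) for the 49 tested clustered histone probes, grouped by class and ordered within it. Red points were called higher in V/SVZ, blue ones higher in CP and grey ones were not called, and open triangles mark probes not well above background on any CP array. The differences run from -1.17 (H3c15) to 5.85 (H1f5), and each class but H1 has blue points.

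The signal of 6 called probes was not well above background on any CP array, so their fold change is given as a lower bound. The bound holds only under the main background correction, and several folds with normexp background correction lay below it. For this bound, each CP array contributes the larger of 2 signals, that of the probe and the lowest one still scored well above background there, and the V/SVZ mean is divided by their mean. Adjusted p-values printed with such bounds are from the fit of the measured values and do not test the bound. Every probe given such a bound here passed the filter on dim probes through V/SVZ alone, the tissue where it was higher. Its call is therefore no separate support for a difference. With those probes at their bound the median of the 49 was 2.29, and 3 of the 33 probes past 2-fold and 2 of the 11 past 8-fold had a bound below that fold. The 3 probes that were not tested belong to H1f3, which no array measured well above background, to H2ac6, which was so on 2 V/SVZ arrays, and to H4c14, whose dimmer probe was so on 3 V/SVZ arrays. Normexp background correction, here with an offset of 50 units added, moves dim values most. With it the fold of H2ac21 was 2.94 in place of 7.9, and that of H2bc3 2.07 in place of a bound of 3.01. That of H3c11 was 8.58 in place of 14.7, and that of H4c17 3.41 in place of 5.98. By cluster, 28 of 37 tested Hist1 probes and 7 of 9 Hist2 probes were called higher in V/SVZ, with 4 and 2 called higher in CP. Both Hist3 probes were called higher in CP, and the single Hist4 probe was not called. Over all tested probes 35.3% were called higher in V/SVZ, 44.4% higher in CP and 20.3% not called. The counts by cluster, and those by class below, stand beside these shares. The Hist3 and Hist4 probes are too few to describe a cluster.

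Linker histone H1 gave the largest difference of all members. Of 5 tested H1 probes, 3 were called higher in V/SVZ and 2 were not called, with a median difference of 3.90. H1f5, a somatic replication-dependent H1, had 3.99, 4.06, 3.99 and 4.06 in V/SVZ, against -2.07, -1.96, -1.46 and -1.83 in CP. The tissues were far apart and the V/SVZ arrays close together, and the difference was 5.85 ± 0.12 (SE, n = 4 per tissue), or 57.8-fold (adjusted p = 2.78e-09). H1f1 had 0.29, 0.32, 0.10 and 0.37 in V/SVZ, against -3.77, -3.75, -4.09 and -4.24 in CP, a difference of 4.23 ± 0.12 (adjusted p = 1.54e-08). H1f4, the H1 probe with the highest mean signal, had 4.18, 4.15, 4.02 and 4.24 in V/SVZ, against 0.06, 0.13, 0.45 and 0.36 in CP. Its difference was 3.90 ± 0.09 (adjusted p = 6.34e-09), and no array of one tissue reached those of the other.

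H1f2, another somatic H1, stood apart from these 3 genes. It had -0.44, -0.12, -0.39 and -0.08 in V/SVZ, against -0.16, 0.03, -0.27 and -0.27 in CP. The arrays of the tissues overlapped, and the difference was -0.09 ± 0.11 (adjusted p = 0.449). H1f6, the linker histone of the testis, was dim throughout, with -5.37, -5.53, -5.79 and -5.60 in V/SVZ and -5.94, -6.08, -6.03 and -5.25 in CP. It was well above background on all 4 V/SVZ arrays and on 1 CP array, and its difference of 0.25 ± 0.19 was not called (adjusted p = 0.247). With normexp background correction it was called higher in CP, at -0.21 (adjusted p = 0.0399). Leaving out CP array 4 it was called higher in V/SVZ, at 0.45 (adjusted p = 0.00493), as it was without scaling between arrays, at 0.46 (adjusted p = 0.0384).

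**Figure D2:**
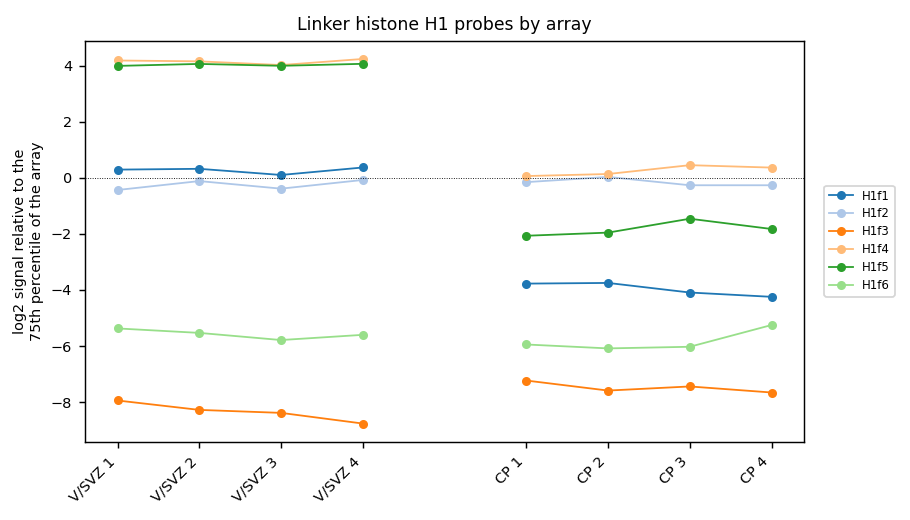
Log2 signal of the 6 linker histone H1 probes relative to the 75th percentile of each array, with the 4 V/SVZ arrays at the left and the 4 CP arrays at the right; lines join the arrays of a probe. H1f5, H1f4 and H1f1 lie lower on every CP array, H1f2 stays between -0.44 and 0.03 on all 8 arrays, and H1f6 and H1f3 are dim.

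Histone H2A, which pairs with H2B in the nucleosome, had 14 tested probes, and 11 were called toward V/SVZ and 3 toward CP (median 2.56). Its brightest probes gave much the same value. The 7 probes with a CP mean above 4, for H2ac10, H2ac11, H2ac12, H2ac15, H2ac19, H2ac20 and H2ac22, lay between 7.34 and 7.75 on the V/SVZ arrays and between 4.34 and 5.40 on the CP arrays. Their differences ran from 2.41 to 2.96, and these are near-identical genes whose signals could not be separated here. The brightest of them was H2ac12, with 7.73, 7.69, 7.68 and 7.75 in V/SVZ, against 5.24, 5.19, 5.40 and 5.30 in CP. Its difference was 2.43 ± 0.05 (adjusted p = 2.73e-09), with no overlap.

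H2ac15 was read by a pair of probes whose differences lay more than 1 apart. The first (A_52_P498208) had 5.10, 5.21, 5.14 and 5.35 in V/SVZ, against 1.19, 1.09, 1.43 and 1.30 in CP, a difference of 3.95 ± 0.09 (adjusted p = 3.36e-09). The second (A_55_P2084652) is one of the 7 bright probes, with a difference of 2.54 ± 0.05 (adjusted p = 2.38e-09). Both were called higher in V/SVZ. H2ac4 had 5.83, 5.21, 5.37 and 5.24 in V/SVZ, against 1.71, 1.58, 1.96 and 1.84 in CP, a difference of 3.64 ± 0.15. H2ac21 was dimmer, with -2.55, -2.74, -3.03 and -2.55 in V/SVZ, against -5.95, -5.89, -5.58 and -5.37 in CP, where it was well above background on 2 of 4 arrays (difference 2.98 ± 0.16). H2ac8 was well above background on no CP array, and its V/SVZ mean was at least 1.06-fold higher (adjusted p without the bound = 0.000581).

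The 3 H2A probes called higher in CP differed less. H2ac18 had 1.01, 0.94, 0.71 and 0.82 in V/SVZ, against 1.58, 1.51, 1.27 and 1.30 in CP, a difference of -0.54 ± 0.09 (adjusted p = 0.000777). H2ac18 and H2ac19 (formerly Hist2h2aa1 and Hist2h2aa2) are near-identical neighbours, and the H2ac19 probe had 7.47, 7.41, 7.36 and 7.42 in V/SVZ, against 4.82, 4.81, 4.89 and 4.84 in CP, a difference of 2.57 ± 0.04. The probes named for this pair were thus called in opposite directions. H2aw, from the small Hist3 cluster, had 3.20, 3.20, 3.14 and 3.28 in V/SVZ, against 3.80, 3.64, 3.63 and 3.58 in CP, a difference of -0.46 ± 0.06 (adjusted p = 9.64e-05), or -0.18 with normexp (adjusted p = 0.0305). H2ac1, the testis form TH2A, had -1.18, -1.26, -1.33 and -1.23 in V/SVZ, against -1.02, -0.94, -0.97 and -0.99 in CP. Its difference of -0.27 ± 0.04 (adjusted p = 0.000398) had no overlap between the tissues, but was not called with median scaling (-0.18, adjusted p = 0.0695) or with no scaling (-0.06, adjusted p = 0.188).

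Histone H2B had 11 tested probes, with 8 called higher in V/SVZ, 2 higher in CP and 1 not called (median 1.47, or 0.74 with dim probes at their bound). H2bc18 had 1.90, 1.98, 1.66 and 1.84 in V/SVZ, against -2.62, -2.67, -2.34 and -2.37 in CP. No arrays overlapped, and the difference of 4.34 ± 0.10, or 20.3-fold, was the largest of the class (adjusted p = 4.53e-09). H2bc14 had 2.68, 2.65, 2.54 and 2.57 in V/SVZ, against 1.32, 1.06, 1.31 and 0.88 in CP, a difference of 1.47 ± 0.10. H2bc21 differed by 1.62 ± 0.07 and H2bc4 by 0.74 ± 0.16, both with V/SVZ higher. H2bc1, the testis form TH2B, had 2.66, 2.50, 2.68 and 2.42 in V/SVZ, against 2.30, 2.07, 2.32 and 1.85 in CP, a difference of 0.43 ± 0.11 (adjusted p = 0.00863). The tissues did not overlap, though the lowest V/SVZ array and the highest CP arrays lay close together.

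Another 3 H2B probes were well above background on all V/SVZ arrays and on no CP array. The V/SVZ mean of H2bc3 was at least 3.01-fold higher, that of H2bc22 at least 1.47-fold and that of H2bc23 at least 1.17-fold. Without the bound, the fit gave adjusted p-values of 7.1e-07, 7.14e-08 and 9.02e-05 in that order. H2bc8 had -4.32, -3.73, -3.99 and -3.74 in V/SVZ, against -5.75, -3.82, -4.86 and -4.74 in CP. The arrays overlapped through CP array 2, and the difference of 0.85 ± 0.37 was not called (adjusted p = 0.066). With the replicate number as a block, the difference was 0.85 ± 0.22 (adjusted p = 0.0195). Without CP array 2 it was 1.17 (adjusted p = 0.0064), and with normexp it was 0.30.

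The H2B probes called higher in CP were H2bc6 and H2bu2. H2bc6 had -3.71, -3.61, -3.28 and -3.30 in V/SVZ, against -2.79, -2.66, -2.64 and -2.77 in CP, a difference of -0.76 ± 0.11 (adjusted p = 0.000221). H2bu2, the Hist3 partner of H2aw, had 4.68, 4.55, 4.83 and 4.54 in V/SVZ, against 5.24, 5.01, 5.23 and 4.78 in CP. CP array 4 lay below V/SVZ array 3, and the difference was -0.42 ± 0.12 (adjusted p = 0.0113). It was not called without scaling, at -0.21 (adjusted p = 0.176).

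Histone H3, the core histone whose tail carries many of the best-known chromatin marks, had 8 tested probes, with 6 called toward V/SVZ and 2 toward CP (median 2.45, or 1.88 with dim probes at their bound). H3c14 had 2.28, 2.22, 2.03 and 2.20 in V/SVZ, against -1.48, -1.49, -1.30 and -1.36 in CP, a difference of 3.59 ± 0.07, or 12-fold (adjusted p = 1.85e-09). H3c11 had -0.41, -0.51, -0.88 and -0.75 in V/SVZ, against -4.68, -4.62, -4.32 and -4.44 in CP, a difference of 3.88 ± 0.12. Both pairs of groups were well apart. H3c4, the brightest H3 probe, differed less, with 5.46, 5.38, 5.24 and 5.29 in V/SVZ, against 4.31, 4.27, 4.28 and 4.14 in CP (difference 1.09 ± 0.06). H3c7 differed by 1.31 ± 0.06, again with V/SVZ higher and no overlap.

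H3c8 and H3c1 were well above background on all V/SVZ arrays and on no CP array. H3c8 had -2.14, -2.63, -2.54 and -2.85 in V/SVZ, against -7.53, -7.20, -6.29 and -6.71 in CP. Its V/SVZ mean was at least 8.97-fold higher (adjusted p without the bound = 1.6e-06), and with normexp background correction the fold was 4.39. H3c1 had -2.38, -3.55, -3.19 and -3.91 in V/SVZ, against -7.84, -7.83, -6.73 and -7.70 in CP. Its V/SVZ mean was at least 5.44-fold higher (adjusted p without the bound = 1.31e-05), and the normexp fold was 3.49.

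The H3 probes called higher in CP were H3c15 and H3c3. H3c15 had -2.17, -2.29, -2.44 and -2.31 in V/SVZ, against -0.89, -1.03, -1.40 and -1.21 in CP. The difference of -1.17 ± 0.11 (adjusted p = 2.27e-05) made it the only tested member at least 2-fold higher in CP, and its near-identical neighbour H3c14 was called in the other direction. H3c3 had 1.35, 1.45, 1.49 and 1.39 in V/SVZ, against 1.79, 1.79, 1.80 and 1.77 in CP, a difference of -0.37 ± 0.04 (adjusted p = 4.05e-05). The CP arrays were nearly equal, and the tissues did not overlap. With normexp the difference was -0.14 (adjusted p = 0.0131).

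Histone H4, a core histone whose clustered genes encode almost the same protein, had 11 tested probes, with 7 called higher in V/SVZ, 1 higher in CP and 3 not called (median 2.44). H4c3 had 0.63, 0.36, 0.17 and 0.20 in V/SVZ, against -2.19, -2.59, -2.14 and -2.55 in CP, a difference of 2.71 ± 0.14, or 6.52-fold (adjusted p = 5.01e-07). H4c17 differed by 2.58 ± 0.16, and neither probe overlapped between the tissues. The H4c9 probes lay more than 1 apart. The first (A_55_P2158697) had -0.83, -0.80, -1.04 and -0.90 in V/SVZ, against -3.28, -3.22, -3.08 and -3.04 in CP, a difference of 2.26 ± 0.07. The second (A_55_P2174198) had -1.34, -1.35, -1.55 and -0.95 in V/SVZ, against -1.49, -1.72, -1.55 and -1.60 in CP, a difference of 0.29 ± 0.12 (adjusted p = 0.0541) that was not called. This second probe was called higher in V/SVZ with no scaling (0.50, adjusted p = 0.00561), spike-in scaling (0.31, 0.0434), a variance trend (0.29, 0.045), array weights (0.28, 0.02), the authors' deposited table (0.30, 0.0326) and without V/SVZ array 3 (0.38, 0.0161), while normexp gave 0.08 (adjusted p = 0.567). H4c8 had -3.69, -3.58, -3.10 and -4.04 in V/SVZ, against -3.30, -3.01, -3.13 and -3.05 in CP. The arrays overlapped through V/SVZ array 3, and the difference of -0.48 ± 0.18 (adjusted p = 0.039) was not called once V/SVZ array 1, 2 or 4 or CP array 2, 3 or 4 was left out, when it ran from -0.34 to -0.49, or with normexp (-0.26, adjusted p = 0.0555).

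The other 6 H4 probes differed strongly between arrays of the same tissue. H4c4 had 4.63, 0.93, 3.57 and 0.74 in V/SVZ, against 2.04, -1.83, 1.55 and -1.81 in CP. H4f16 had 3.34, 0.40, 2.26 and 0.26 in V/SVZ, against 0.86, -1.99, 0.40 and -1.88 in CP. In both tissues the arrays numbered 1 and 3 were high and those numbered 2 and 4 low, so the tissues overlapped. The difference of H4c4 was 2.48 ± 1.26 (adjusted p = 0.103) and that of H4f16 was 2.21 ± 0.93 (adjusted p = 0.0581), and neither was called. With the replicate number as a block, both were called, H4c4 at 2.48 ± 0.13 (adjusted p = 5.19e-05) and H4f16 at 2.21 ± 0.12 (adjusted p = 5.05e-05). The arrays numbered 2 and 4 alone gave differences of 2.65 for H4c4 and 2.26 for H4f16, and those numbered 1 and 3 alone gave 2.31 and 2.16. These arrays were grouped by the pattern itself, so the values are a description with no test.

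The same order of arrays was seen in 4 further H4 probes that were called higher in V/SVZ. The brightest was an H4c12 probe (A_55_P2091145), with 5.73, 3.60, 4.78 and 3.51 in V/SVZ, against 3.23, 1.14, 2.86 and 1.23 in CP. Its difference was 2.29 ± 0.67 (adjusted p = 0.0135), and that of the second H4c12 probe (A_55_P2091147) was 2.48 ± 0.74 (adjusted p = 0.0148). H4c14 had 5.54, 3.27, 4.57 and 3.19 in V/SVZ, against 2.94, 0.65, 2.53 and 0.67 in CP, a difference of 2.44 ± 0.73 (adjusted p = 0.0148). H4c11 had 1.22, -0.75, 0.31 and -0.89 in V/SVZ, against -1.46, -3.43, -1.77 and -3.24 in CP, a difference of 2.45 ± 0.62 (adjusted p = 0.00702). The tissues did not overlap for these 4 probes, but the gaps between them were narrow.

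**Figure D3:**
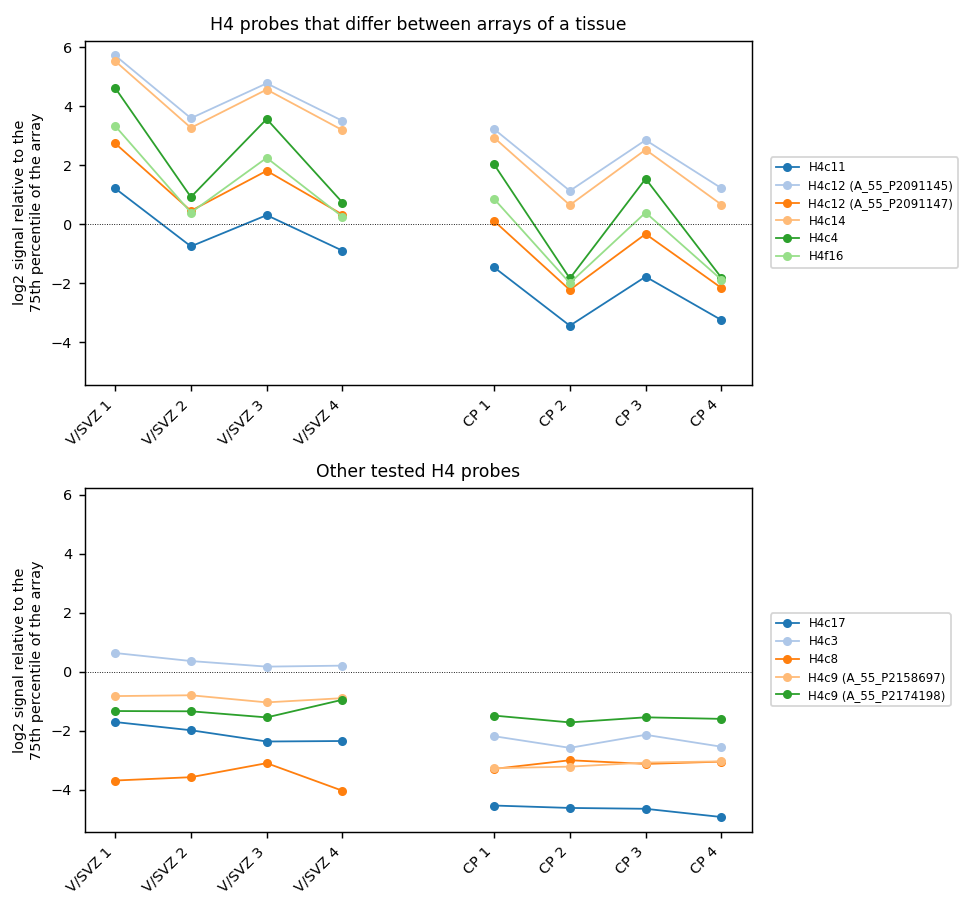
Log2 signal of the tested H4 probes relative to the 75th percentile of each array, with the V/SVZ arrays at the left and the CP arrays at the right, joined by a line per probe. In the upper panel 6 probes are higher on arrays 1 and 3 than on arrays 2 and 4 in both tissues, most of all H4c4, which spans 3.89 in V/SVZ and 3.87 in CP. The other 5 probes, in the lower panel, do not follow that order.

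The reach of this array pattern was described by setting every probe beside H4c4, a choice made after its values were seen. Over 23806 probes with a value on all 8 arrays, 11 deviated from their tissue means with a correlation to H4c4 above 0.9 (over 8 arrays) and a within-tissue SD above 0.5. They were the 6 H4 probes, Vxn, 1700025G04Rik, and 3 probes whose accession the RefSeq table does not name. Both limits were set after values were seen, and smaller swings of the same order fall outside them. H2ac8 correlated at 0.972 with an SD of 0.468, H2bc4 at 0.898 with 0.245, H2bc1 at 0.888 with 0.178 and H2bu2 at 0.834 with 0.183, and these members of other classes were also higher on arrays 1 and 3 than on arrays 2 and 4 in both tissues. H2bc8, at -0.765 with an SD of 0.592, had the opposite order, lower on arrays 1 and 3 in both tissues. The dimmer H4c14 probe, which was not tested, had that opposite order too. The median within-tissue SD of all probes was 0.0933, and 4.07% of them passed 0.5. Vxn had 0.78, -0.51, 0.30 and -0.64 in V/SVZ, against 1.22, -0.11, 0.78 and -0.07 in CP, so the pattern was also found in a probe with less signal in V/SVZ. The median spot signals before any scaling showed it too, with 46046, 4019, 24085 and 3437 intensity units for H4c4 in V/SVZ, against 8379, 609.5, 5531 and 613 in CP. The local background around the 11 probes ran from 29 to 55 units on the V/SVZ arrays and from 55 to 75.5 on the CP arrays.

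Of the 11 probes, 8 lay in rows 460 to 514 of the 532 rows of the array, and 3 lay elsewhere. These rows were drawn around the pattern probes themselves after their positions were seen, so that count is only a description. Of the 11 tested H4 probes, 6 lay in these rows, and 5 of these 6 had the pattern. The 2330 compared probes in those rows had a median within-tissue SD of 0.0919, close to that of all probes. Arrays of the same number had the same position on their slides, so replicate number and position cannot be told apart, and neither was tested as a cause.

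Other histone genes and genes of histone supply were read for comparison, each through its brightest tested probe, from lists chosen with earlier results of these data known. The counts of these lists stand beside shares of 35.3% called higher in V/SVZ, 44.4% higher in CP and 20.3% not called over all tested probes. Of 24 tested S phase genes, 24 were called higher in V/SVZ (median 2.76). Tk1, thymidine kinase, had 2.52, 2.42, 2.21 and 2.35 in V/SVZ, against -3.37, -3.32, -3.01 and -3.36 in CP (difference 5.64 ± 0.10, adjusted p = 1.39e-09). Mcm3, a subunit of the replicative helicase, differed by 4.81 ± 0.08 (adjusted p = 9.96e-10). Cdc6, which loads that helicase, passed background on none of the CP arrays and was at least 16.9-fold higher in V/SVZ. Its adjusted p without the bound was 1.33e-08, and its normexp fold was 6.78. No gene of this list was called higher in CP, whereas 8 clustered histone probes were.

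Among 14 tested replication-independent histones, whose mRNAs are mostly polyadenylated, 9 were called higher in V/SVZ, 4 higher in CP and 1 was not called (median 0.85). Cenpa, the H3 variant of centromeres, had 2.35, 2.27, 2.15 and 2.31 in V/SVZ, against -2.92, -2.91, -2.75 and -2.92 in CP (difference 5.15 ± 0.06, adjusted p = 3.57e-10). H1f0, the linker histone that accumulates in differentiated cells, had 0.62, 0.53, 0.43 and 0.49 in V/SVZ, against -1.76, -1.94, -1.83 and -2.00 in CP (2.40 ± 0.06, adjusted p = 1.09e-08). H2aj was called in opposite directions by its probes, at 2.42 ± 0.04 for the brighter (A_52_P407692) and -0.37 ± 0.05 for the dimmer (A_55_P2099540, adjusted p = 0.000189). The brighter lay between 7.55 and 7.60 in V/SVZ and between 5.11 and 5.22 in CP. Those values are inside the ranges of the 7 bright clustered H2A probes, and whether it read H2aj apart from them was not tested. H1f8, the oocyte linker histone, was dim and called higher in CP (-0.74 ± 0.17, adjusted p = 0.00407).

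Genes that make and process histone mRNA differed less. Of 27 tested, 15 were called higher in V/SVZ, 5 higher in CP and 7 were not called (median 0.27). Slbp, which binds the stem-loop of histone mRNAs, had 0.46, 0.38, 0.57 and 0.45 in V/SVZ, against -1.29, -1.40, -1.38 and -1.39 in CP. The tissues were well apart, and the difference was 1.83 ± 0.05 (adjusted p = 1.12e-08). Pou2f1, the octamer-binding factor, differed by 0.87 ± 0.12 (adjusted p = 0.000217) and Snrpb, a subunit of spliceosomal snRNPs and of the U7 snRNP, by 0.86 ± 0.05 (adjusted p = 6.94e-07). Coil, the scaffold of Cajal bodies, was called higher in CP (-0.65 ± 0.14, adjusted p = 0.00258). Hinfp, the H4 promoter factor, differed by 0.04 ± 0.04 (adjusted p = 0.322).

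Of 32 tested histone chaperones, 21 were called higher in V/SVZ, 8 higher in CP and 3 were not called (median 0.40). Asf1b, an H3-H4 chaperone of dividing cells, lay between 0.90 and 1.12 in V/SVZ, against -3.79 to -3.57 in CP (difference 4.75 ± 0.07, adjusted p = 5.6e-10). Nap1l5, a member of the nucleosome assembly protein family, had -3.01, -2.06, -2.25 and -2.15 in V/SVZ, against -0.30, 0.32, 0.12 and 0.10 in CP (-2.43 ± 0.23, adjusted p = 1.87e-05).

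**Figure D4:**
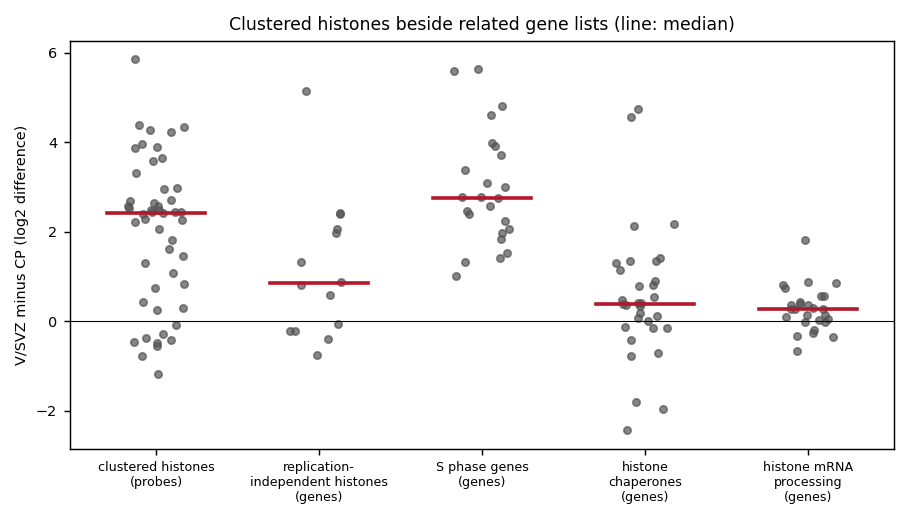
Difference between V/SVZ and CP (log2) for the 49 tested clustered histone probes and for the genes of 4 related lists, 1 point per probe or gene, with a line at the median. The median is 2.41 for the clustered histones, 0.85 for replication-independent histones, 2.76 for S phase genes, 0.40 for chaperones and 0.27 for histone mRNA processing.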

How the data were processed

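Total RNA (100 ng) was amplified (Low Input Quick Amp) and given Cy3, according to the labels. Per the file headers, Agilent Feature Extraction 10.7.1.1 made the deposited intensity values, which are a processed signal per spot and the spot and background medians. A second file deposited by the authors holds log2 values, centred per probe, of 17163 gene probes. Its scaling is not given in the sources used here, and its column medians ran from -0.03 to 0.02. Each column correlated above 0.999 with the array of the same number but the other tissue, and between -0.95 and -0.94 with the array it is named for, so it was used only as an alternative, turned to the direction of the scanner files. With its column names taken as given, every sign would be the opposite. The number of columns left unmapped was 0.

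Outlier spots (142 to 258 per array) were left out, spots of a probe averaged, and log2 of the processed signal taken minus the 75th percentile of each array. No gene spot was saturated. Probes were tested where they were well above background on all 4 arrays of a tissue and had at least 3 values in each, by moderated linear models (limma 3.58.1 under R 4.3.3), without a block. The procedure was also tested on simulated data. Unversioned accessions were matched to RefSeq (GRCm38.p6), which named 26761 of 39429 gene probes; the array header names build mm9, so no gene coordinates are given, and promoter windows carry the RefSeq table's build.

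The members and lists were chosen with earlier results of these data known. Described singly were, per class, the brightest probe and those with the largest and smallest differences, every member called higher in CP, genes whose probes lay more than 1 apart or were called in opposite directions, members with a CP mean above the 75th percentile, and per related list the 3 called genes with the largest difference and the one furthest against the majority, of which 1 gene is not reported here. Hinfp, the H4 probes of the array pattern, further members of each class, the limits that define that pattern, the array rows set beside it, and the shown promoters were chosen after values were seen. Other results were described by counts.

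Pairing of replicate numbers rests on correlations alone, not on the labels. Deviations of same-numbered arrays from their tissue means correlated at 0.34, 0.31, 0.12 and 0.21 over the tested probes, but at 0.07, 0.10, 0.00369 and 0.03 in the authors' table, and V/SVZ array 3 correlated better with CP array 2 (0.17) than with CP array 3 (0.12). The correlations over the tested probes were seen together with the counts of the blocked fit, so that choice was not blind. Blocked values are therefore given beside the results they change. Alternatives covered scaling, background correction, filters, probe choice, block, variance model, array weights, the authors' table and each array left out. The number of arrays limits the precision.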

Additional observations from a re-analysis of the deposited data

Results flagged for a closer look

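Single arrays far from the other 3 of their tissue were looked for in 98 groups of 4 arrays of tested members, and 2 stood out, where chance alone flags about 1 in 20 groups. The H1f6 probe (A_51_P312615) had -5.2505 on CP array 4, the highest of the tissue, with the others between -6.08 and -5.94 (gap over range 0.833). The H3c1 probe (A_51_P518621) had -6.7308 on CP array 3, with the others between -7.84 and -7.70 (gap over range 0.879), and it was not well above background on any CP array.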

How the results depend on the processing

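Over the 49 tested members, 946 of 990 values under the alternatives kept their direction and side of the threshold (sign changes where neither value was called are counted here), 27 became called, 16 lost the call and 1 reversed, H1f6 with normexp (-0.21). The 35 members called higher in V/SVZ became 15 in the authors' deposited table, where only 19 members were present, and 35 to 36 with single arrays left out. They became 28 where signal well above background was asked of all 8 arrays, which left 40 members. The 8 called higher in CP became 5 without scaling, 4 in the authors' table, 5 over arrays 1 and 3 alone (chosen after seeing the data), 1 with a 2-fold minimum, and 7 to 8 with single arrays left out. The median of 2.41 became 2.62 without scaling, 1.80 with normexp and 2.03 to 2.54 with single arrays left out. Of all probes, 3289 were called toward V/SVZ and 3911 toward CP with the 2-fold minimum, against 8410 and 10598. Without scaling the median of all tested probes was 0.12. The replicate block called 38 members toward V/SVZ and 8 toward CP, and changed no other member's call than those of H4c4, H4f16 and H2bc8 (adjusted p = 0.0195). H4c8, called higher in CP, lost its call under 11 alternatives. Probes near background had only bounds, which hold for the main background correction alone, and the cause of these changes was not tested.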
